A study of Rattus norvegicus with 24 samples.

Results

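Fabp4 and 6 other genes of adipocyte lipid handling (Lpl, Cd36, Adipoq, Plin1, Pparg and Cfd) were followed across 24 GeoMx areas of diabetic rat skin wounds. The 7 genes were taken by their target names, whatever their values, from the 19962 gene targets of the deposited tables. All 7 names equal a symbol of the rat annotation. Fabp4 and Cd36 stood above background in all 24 areas, and the other 5 genes did so in 0 of their 120 area values. Fabp4 spanned 24.5 to 729 units between areas, with its highest and its lowest value in 2 regions of the same treatment, Gel. Both Fabp4 and Cd36 were lower in Segment 2 than in Segment 1, and neither passed the test between treatments.

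Fat cells take up fatty acids that lipoprotein lipase, the product of Lpl, releases from circulating triglyceride at the capillary wall, where the endothelial protein Gpihbp1 holds the enzyme. Cd36 is a membrane receptor that moves long-chain fatty acids into cells, and Fabp4 is a small cytosolic carrier that binds them inside. Plin1 coats the large lipid droplet of fat cells, Pparg is the nuclear receptor that drives fat cell differentiation, and Adipoq (adiponectin) and Cfd (adipsin, complement factor D) are proteins that fat cells secrete. Fabp4 and Cd36 are also known in capillary endothelium and in macrophages, whereas Adipoq and Plin1 are among the most fat-cell-restricted genes. Skin holds fat cells in its dermal and subcutaneous layers.

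The wounds were splinted skin defects of 8 mm in male Sprague-Dawley rats in which streptozotocin had been given at 5 weeks of age to cause diabetes, and tissue was taken at day 7. All wounds came from diabetic animals. The treatments were CuNZ@Gel (a hydrogel with a nanozyme whose composition the labels do not give), Gel (hydrogel without it) and Sham, with 2 numbered specimens each. Each specimen gave 2 regions, named mac1 and mac2, and each region gave 2 segments drawn from positive immunofluorescence. The labels name neither the antibodies nor what separates Segment 1 from Segment 2. It is not stated whether each numbered specimen is a separate animal, so p-values reach no further than these 6 specimens. The limma p-values also draw on a spread pooled over targets, and those between segments rest on differences within specimens. An area can hold several cell types, and fewer cells of a type and less RNA per cell cannot be told apart. Recovered totals ran from 86385 to 1476499 counts per area. Segment 2 was the shallower segment in 11 of 12 regions, with a median of 170040 counts against 533133.5 in Segment 1.

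Values are the deposited scaled signal, in which the 75th percentile of targets is alike between areas. Receptors for odorants and pheromones served as the background: of their 1116 targets the 99th percentile was taken in each area, and it ranged from 11.4 to 21.6 units. A target was called above background where it exceeded that value in at least 4 areas, as 5554 targets did (27.8%). Probes differ in affinity, so levels are compared between areas for the same target and not between targets.

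Fabp4 lay 1.71 to 54.0 times above the background of its area (median 6.87) and was read by 10 to 1189 counts per area. Cd36 lay 1.32 to 28.2 times above it (median 5.53), with 16 to 621 counts. The other 5 genes had 1 to 17 counts per area. Lpl reached at most 0.429 times the background, Adipoq 0.429, Cfd 0.5 and Pparg 0.556. Plin1 came nearest, at 1.0 times the background in Segment 2 of region mac2 of Gel specimen 2, where its signal was 16.4. At this depth these 5 genes could not be separated from the receptor targets in any area, and how well their probes read rat RNA was not tested. Of the 18 genes of the adipocyte list 3 were above background (Fabp4, Cd36 and Cebpa, a transcription factor with roles in myeloid cells as well as fat cells), while Lep (leptin), Cidec and Plin4 (droplet proteins), Lipe and Pnpla2 (lipases) and Retn (resistin) exceeded it in 0 areas.

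**Figure D1:**
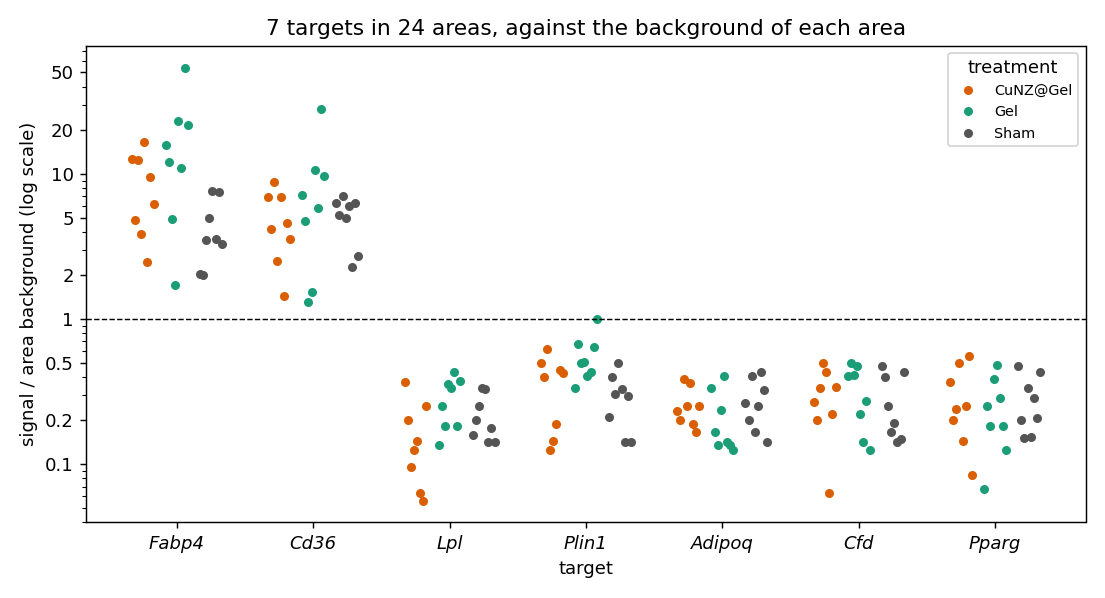
Signal of each of the 7 targets divided by the background of the same area, on a log scale, for 8 areas of each treatment; the dashed line marks the background. All 24 points of Fabp4 and Cd36 lie above the line, and the points of the other 5 targets lie at or below it.

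Fabp4 by treatment was examined first. In CuNZ@Gel specimen 1 Fabp4 stood at 54.3 and 73.6 in the Segment 2 areas of mac2 and mac1, and at 160.0 and 157 in their Segment 1 areas. CuNZ@Gel specimen 2 gave 100.8 and 53.1 in Segment 2 and 131 and 217 in Segment 1. All 8 CuNZ@Gel areas thus lay between 53.1 and 217. In Gel specimen 1 the values were 24.5 and 196 in the Segment 2 areas of mac2 and mac1, and 72.9 and 221 in Segment 1. Gel specimen 2 gave 356 and 157 in Segment 2 and 729 and 263 in Segment 1. The Gel areas therefore held both extremes of the 24, and the low pair came from mac2 of specimen 1 and the high pair from mac2 of specimen 2. In Sham specimen 1 Fabp4 was at 73.6 and 30.7 in Segment 2 and at 49.8 and 28.1 in Segment 1. Sham specimen 2 gave 47.0 and 51.1 in Segment 2 and 89.0 and 94.7 in Segment 1. The highest Sham area was 94.7, and 6 of the 8 Gel areas and 5 of the 8 CuNZ@Gel areas lay above it. These areas come from 2 specimens a treatment, and the share of all targets with such counts was not computed.

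**Figure D2:**
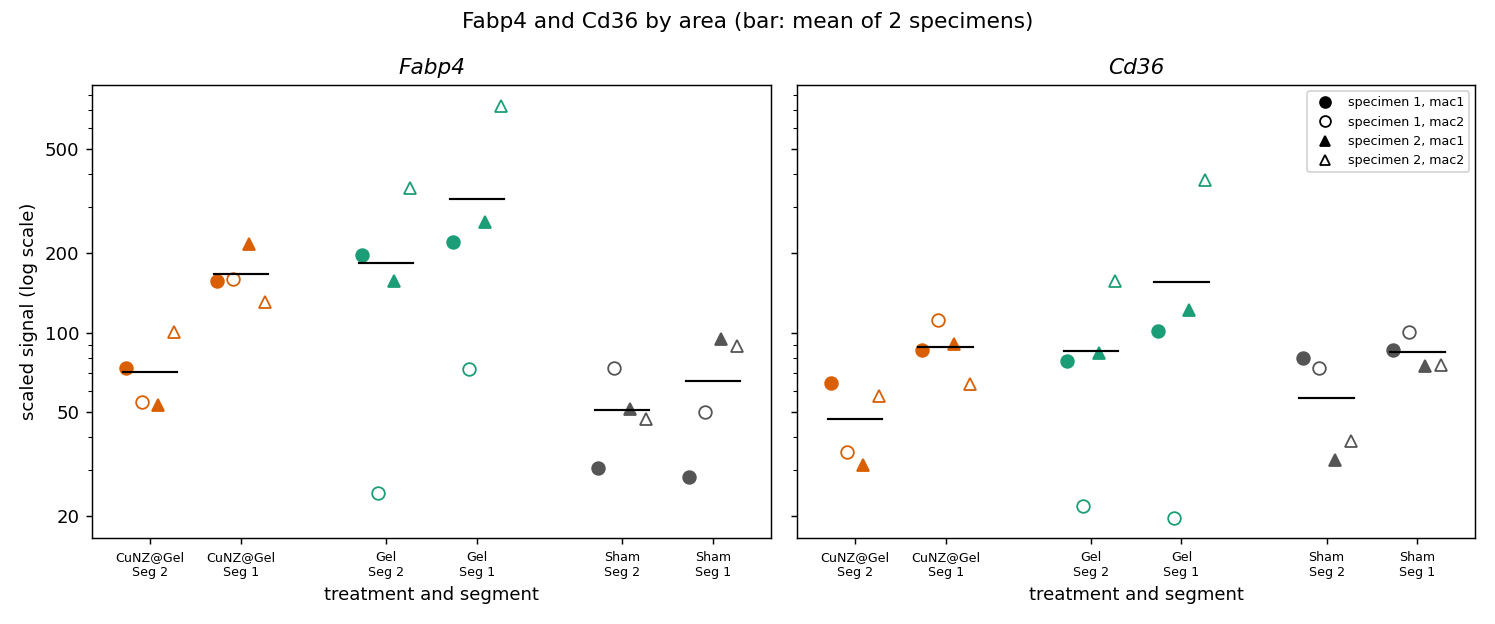
Scaled signal of Fabp4 (left) and Cd36 (right) in every area on a log scale, by treatment and segment; circles are specimen 1 and triangles specimen 2, filled symbols region mac1 and open symbols region mac2, and bars the mean of 2 specimens. The open symbols of Gel hold the highest and the lowest values of both targets.

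Averaged over specimens, Fabp4 stood at 118 ± 10.2 in CuNZ@Gel, 253 ± 175 in Gel and 58.0 ± 17.6 in Sham (SD, n = 2). The mean of each of the 4 hydrogel specimens (111 and 126 in CuNZ@Gel, 129 and 376 in Gel) lay above those of both Sham specimens (45.5 and 70.5). Such an order was common: between Gel and Sham 23.6% of all targets, and 13.1% of those above background, had both specimen means of the log2 values higher without overlap, and between CuNZ@Gel and Sham 23.6% and 12.5% did. Gel exceeded Sham by 1.69 on the log2(value + 1) scale (SE 0.73, 95% interval -0.47 to 3.86, limma adjusted p = 0.518). CuNZ@Gel exceeded Sham by 0.97 (interval -1.19 to 3.14, limma adjusted p = 0.75) and differed from Gel by -0.72 (interval -2.88 to 1.44, limma adjusted p = 0.982). None of these differences passed the threshold against a spread shared by all treatments, and the 2 Gel specimens lay furthest apart. With only the 2 groups compared in the fit, CuNZ@Gel against Sham passed and the other comparisons did not. The intervals are wide because the robust fit left Fabp4 with nearly its own SD of specimens (0.73 used, 0.77 its own), while most targets drew on a spread pooled over targets.

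The call for Fabp4 depended on the setting. Gel against Sham passed the threshold in 11 of 26 alternatives, with log2 changes of 0.81 to 2.57 over all 26. Of the 11, 6 kept all specimens and both regions: median scaling (1.54, limma adjusted p = 0.000242), limma without its trend and robust steps (1.69, adjusted p = 0.0217), thinned counts (1.97, adjusted p = 0.0111), edgeR (1.95, adjusted p = 1.48e-06), Segment 2 areas alone (1.40, adjusted p = 2.22e-05) and the replicate block (1.69, adjusted p = 0.022). Region mac1 alone passed too (2.16, limma adjusted p = 5.4e-13), and the other 4 left out a Gel specimen or region. Without Gel specimen 2 the change was 0.81 (limma adjusted p = 0.00527), and without Gel specimen 1 it was 2.57 (adjusted p = 7.51e-34). Both leave a single Gel specimen, which is then assumed to vary like the other groups. Leaving out only region mac2 of Gel specimen 2, a choice made after seeing the data, gave 1.36 (limma adjusted p = 4.63e-05), and leaving out mac2 of Gel specimen 1 gave 2.26 (adjusted p = 1.95e-13). CuNZ@Gel against Sham passed in 6 of 26 alternatives, among them 0.97 without either Gel specimen (limma adjusted p = 1.26e-06 without specimen 1 and 3.22e-06 without specimen 2). CuNZ@Gel against Gel ran from -1.60 without Gel specimen 1 (limma adjusted p = 3.35e-12) to 0.16 without Gel specimen 2 (adjusted p = 0.905).

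Cd36 did not follow the same order of treatments. In CuNZ@Gel specimen 1 it stood at 35.0 and 64.4 in the Segment 2 areas of mac2 and mac1 and at 112 and 85.4 in Segment 1. CuNZ@Gel specimen 2 gave 57.2 and 31.3 in Segment 2 and 63.6 and 90.6 in Segment 1. Gel specimen 1 had the 2 lowest values of all 24 areas in mac2, 22.0 in Segment 2 and 19.8 in Segment 1, with 77.7 and 100.9 in mac1. Gel specimen 2 had the 2 highest in mac2, 157 in Segment 2 and 381 in Segment 1, with 83.8 and 122 in mac1. Sham specimen 1 gave 73.6 and 79.7 in Segment 2 and 100.3 and 85.8 in Segment 1, and Sham specimen 2 gave 38.8 and 32.7 in Segment 2 and 74.99 and 74.8 in Segment 1. The areas of all 3 treatments overlapped. Cd36 averaged 67.4 ± 9.49 in CuNZ@Gel, 121 ± 92.6 in Gel and 70.1 ± 20.9 in Sham (SD, n = 2). The log2 difference was 0.32 for Gel against Sham (SE 0.76, limma adjusted p = 0.932), -0.08 for CuNZ@Gel against Sham (adjusted p = 0.983) and -0.41 for CuNZ@Gel against Gel (adjusted p = 0.999). Without Gel specimen 1 the change against Sham was 1.24 (limma adjusted p = 9.9e-07) and without Gel specimen 2 it was -0.60, so the sign of the Cd36 difference rested on which Gel specimen was kept. CuNZ@Gel against Gel likewise was -1.33 without Gel specimen 1 (limma adjusted p = 1.7e-07).

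Over all 7 genes, 0 passed the test in Gel against Sham, 0 in CuNZ@Gel against Sham and 0 in CuNZ@Gel against Gel (limma). In the same fits 2.42%, 1.31% and 0.943% of the 19728 targets tested were called (in CuNZ@Gel against Gel 0.623% rose and 0.319% fell), or 7.85%, 4.34% and 3.24% of those above background. At an unadjusted p under 0.05 Plin1 alone of the 7 passed in Gel against Sham and 0 in CuNZ@Gel against Sham, while Lpl and Plin1 passed in CuNZ@Gel against Gel, beside 12.1%, 10.6% and 6.7% of all targets. edgeR on the recovered counts called 1 of the 7 between Gel and Sham, Fabp4, and 0 in the other pair of comparisons. DESeq2 called 0 in all 3.

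**Figure D3:**
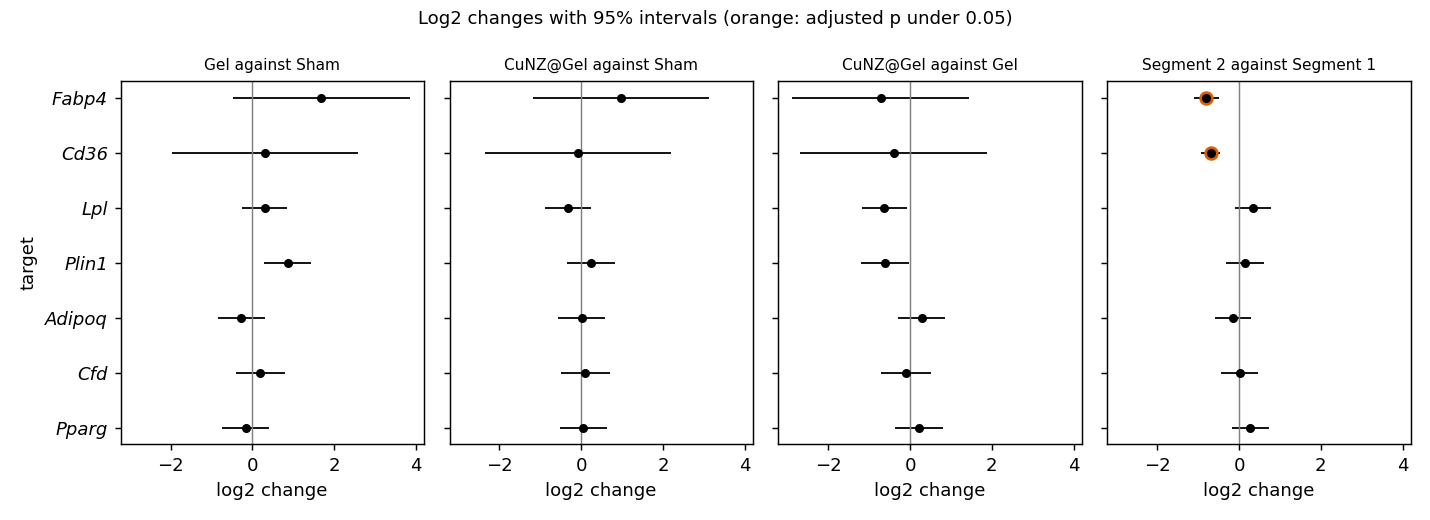
Log2 change of the 7 targets in the 3 treatment comparisons and between the segments, with 95% intervals from limma; orange rings mark an adjusted p under 0.05. Fabp4 and Cd36 carry the widest intervals between treatments, and both are called only between the segments.

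The ratio of Fabp4 to Cd36 within an area was looked at after both genes' values had been seen. It ran from 1.14 to 2.40 in the CuNZ@Gel areas, from 1.11 to 3.69 in the Gel areas and from 0.328 to 1.56 in the Sham areas. The highest area stood 2.10, 3.31 and 4.77 times above the lowest in CuNZ@Gel, Gel and Sham for the ratio, against 4.08, 29.7 and 3.37 times for Fabp4 and 3.56, 19.3 and 3.07 times for Cd36. The ratio thus spanned less than either gene in both hydrogels and more than either gene in Sham. Its absolute size depends on both probes, so only its change between areas is described. The mean log2 difference of the 2 genes was 0.55 and 0.96 in the CuNZ@Gel specimens, 1.11 and 1.03 in the Gel specimens, and -0.98 and 0.37 in the Sham specimens. All 4 hydrogel specimens lay above both Sham specimens, by 1.22 on average, with a two-sided exact permutation p = 0.0667, the smallest that the 15 arrangements of 6 specimens allow. For Fabp4 itself the same contrast was 1.33 (exact permutation p = 0.1333). Gel against Sham alone (1.37) and CuNZ@Gel against Sham alone (1.06) each reached an exact p of 0.3333, the smallest that 6 arrangements allow, so neither pair of treatments can pass on its own.

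In Gel the 2 regions of a specimen differed more in Fabp4 and Cd36 than in nearly all other targets. In Gel specimen 1 Fabp4 in mac2 was 0.33 times its mac1 level in Segment 1 and 0.125 times in Segment 2, and in Gel specimen 2 it was 2.77 and 2.26 times. Cd36 followed, at 0.196 and 0.283 times in Gel specimen 1 and 3.12 and 1.88 times in Gel specimen 2. The direction was therefore opposite in the 2 Gel specimens and alike for both genes and both segments. The SD of log2 values between the 2 regions was 1.36 for Fabp4 in Gel, larger than for 99.8% of the targets above background (median 0.34). It was 1.22 for Cd36 in Gel, larger than for 99.6%. In CuNZ@Gel it was 0.44 for Fabp4 and 0.48 for Cd36 (median of targets 0.33), and in Sham 0.52 for Fabp4 and 0.12 for Cd36 (median 0.33 and larger than for only 5.22% of targets for Cd36). Whether the spread itself differs between treatments was not tested.

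Segment 2 held less of both genes. Fabp4 had its lowest, median and highest values at 24.5, 63.9 and 356 in the 12 Segment 2 areas and at 28.1, 144 and 729 in the 12 Segment 1 areas. It was lower in Segment 2 in 10 of 12 regions, and the exceptions were both regions of Sham specimen 1. The log2 difference was -0.80 (SE 0.14, interval -1.10 to -0.50, limma adjusted p = 0.00293, exact sign-flip p = 0.0625 over 6 specimens). Cd36 was lower in 11 of 12 regions and in 6 of 6 specimens, with mac2 of Gel specimen 1 as the exception. Its log2 difference was -0.70 (SE 0.11, interval -0.92 to -0.47, limma adjusted p = 2.53e-05, exact sign-flip p = 0.03125, the smallest that 64 arrangements allow). Of the 7 genes these 2 fell and 0 rose, beside 1.93% of all targets called and 5.49% of those above background (limma). Segment 2 was lower than Segment 1 in at least 11 of 12 regions in 2.29% of all targets and 7.36% of those above background. No such share was computed for 10 of 12 regions, the count of Fabp4.

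Depth moved with the segments, and its part in the segment difference was not tested beyond the values that follow. The median target above background was itself -0.20 between the segments, and -0.08 after quantile normalization and -0.34 after median scaling. Fabp4 was at -0.66 (limma adjusted p = 0.214) and -0.94 (adjusted p = 9.72e-11) in those settings, and Cd36 at -0.52 (adjusted p = 0.00118) and -0.84 (adjusted p = 2.17e-07). With every area thinned to 86385 counts the difference was -0.55 for Fabp4 (limma adjusted p = 0.132) and -0.88 for Cd36 (adjusted p = 0.00104). In the single region where Segment 2 was the deeper one, mac2 of Gel specimen 1, Fabp4 still read 24.5 in Segment 2 against 72.9 in Segment 1, while Cd36 read 22.0 against 19.8. The Fabp4 call was also lost without Sham specimen 2 (-0.78, limma adjusted p = 0.0709) and without mac2 of Gel specimen 1 (-0.69, adjusted p = 0.0672). Without limma's trend and robust steps both calls were lost (adjusted p = 0.202 for each), as were those of all targets.

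**Figure D4:**
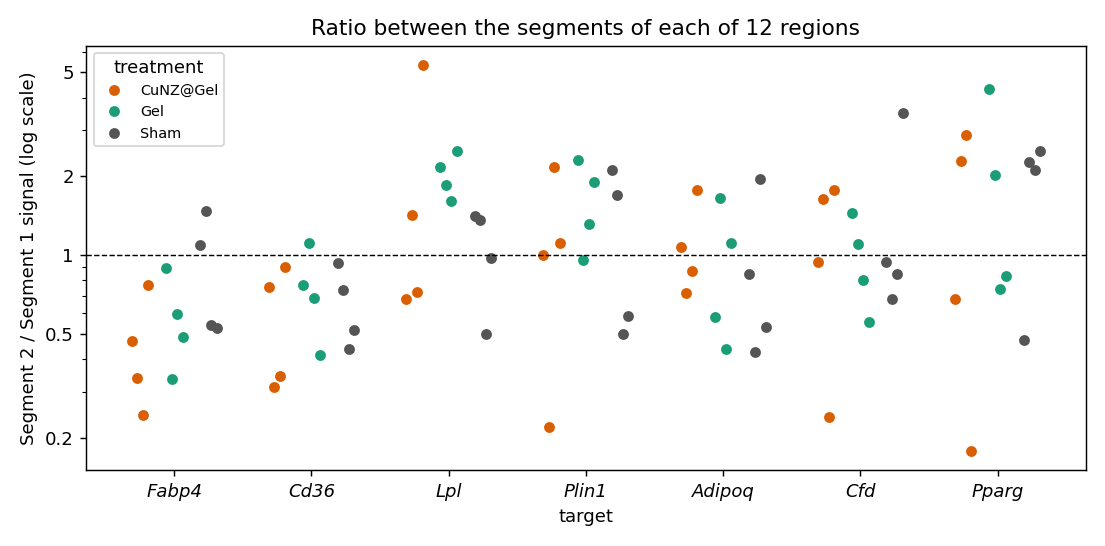
Signal in Segment 2 divided by that in Segment 1 for each of the 12 regions, on a log scale, with the dashed line at equal signal. For Fabp4 10 of 12 and for Cd36 11 of 12 regions lie below the line, while the other 5 targets, all at background, scatter to both sides.

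The mean Fabp4 difference between segments was -1.25 in CuNZ@Gel, -0.87 in Gel and -0.28 in Sham on the log2 scale. The Sham mean joins 2 specimens of opposite direction. Segment 2 stood at 1.09 and 1.48 times Segment 1 in mac1 and mac2 of Sham specimen 1. In Sham specimen 2 it stood at 0.539 and 0.528 times. In CuNZ@Gel Segment 2 stood at 70.5 ± 9.22 and Segment 1 at 166 ± 11.1. In Gel Segment 2 stood at 183 ± 103 and Segment 1 at 322 ± 247, and in Sham the segments stood at 50.6 ± 2.17 and 65.4 ± 37.4 (SD, n = 2 each). The treatment by segment term had an unadjusted p of 0.0014 and a limma adjusted p = 0.407, and of the 7 genes 0 passed it, beside 0.0507% of all targets (5.65% at an unadjusted p under 0.05). On thinned counts Fabp4 passed (limma adjusted p = 1.61e-06). It also passed without Sham specimen 2, where Sham rests on specimen 1 alone, the specimen in which Segment 2 was not lower. For Cd36 the differences were -0.92 in CuNZ@Gel, -0.51 in Gel and -0.66 in Sham (limma adjusted p = 0.933).

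Of the 5 genes at background, Plin1 had the smallest p between treatments. Its areas ran from 1.75 to 7.97 (median 6.13) in CuNZ@Gel, from 4.65 to 16.4 (median 7.34) in Gel and from 2.04 to 7.36 (median 3.80) in Sham. The areas overlapped. The specimen means of Gel (7.58 and 8.93) lay above those of CuNZ@Gel (5.50 and 4.73) and Sham (5.18 and 2.92). Between Gel and Sham 23.6% of all targets had both specimen means of the log2 values higher without overlap. The share for Gel above CuNZ@Gel was not computed. For Plin1 Gel exceeded Sham by 0.87 on the log2 scale (SE 0.29, unadjusted p = 0.00392, limma adjusted p = 0.113), and CuNZ@Gel was at -0.62 relative to Gel (adjusted p = 0.688). The Plin1 adjusted p stayed between 0.0634 and 0.792 over 25 alternatives. Lpl had medians of 1.82 in CuNZ@Gel, 3.95 in Gel and 2.62 in Sham, and CuNZ@Gel against Gel was at -0.63 (SE 0.28, unadjusted p = 0.0255, limma adjusted p = 0.609). Adipoq, Cfd and Pparg had medians between 2.38 and 4.67 units in every treatment, with limma adjusted p-values of at least 0.786 in all 3 treatment comparisons. Since 1 count was worth more in the shallow areas, values of these 5 genes rest on few counts there.

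The wider lipid uptake list, 20 genes for lipoprotein lipolysis, fatty acid entry and activation, had 12 genes above background. Of 19 tested, limma called 3 higher in Gel against Sham and 0 lower, beside 0.618% of all targets that rose and 1.8% that fell. In that comparison edgeR called Gpihbp1 and Fabp4, and DESeq2 called Gpihbp1 alone. The median log2 change of the 19 was 0.31, beside 0.06 for all targets tested. Gpihbp1, the capillary anchor of lipoprotein lipase, rose by 1.75 (SE 0.29, limma adjusted p = 2.16e-06). It passed in 26 of 26 alternatives, with log2 changes of 1.19 to 1.99. Its areas ran from 12.3 to 21.7 in Gel (median 15.4) and from 2.04 to 8.18 in Sham (median 3.82), without overlap. These areas come from 2 specimens a treatment, and the share of all targets whose areas lie apart in this way was not computed. The Gel areas exceeded their background in 6 of 8 cases and the Sham areas in 0 of 8, so the Sham level rests on values at background. CuNZ@Gel areas ran from 1.75 to 17.6 (median 9.98) and differed from Sham by 0.81 (limma adjusted p = 0.176) and from Gel by -0.94 (adjusted p = 0.105). The difference from Sham passed in 2 of 26 alternatives, edgeR and Segment 1 alone. The enzyme that Gpihbp1 carries, Lpl, was at background in all of these areas.

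Apoe, a lipoprotein component made by macrophages among other cells, rose by 1.10 in Gel (SE 0.22, limma adjusted p = 0.000728). It stood at 53.7 ± 12.5 in CuNZ@Gel, 66.0 ± 22.2 in Gel and 34.6 ± 15.6 in Sham (SD, n = 2), and CuNZ@Gel exceeded Sham by 0.81 (adjusted p = 0.0431). The first call was kept in 16 of 26 alternatives and the second in 7 of 26. Without Sham specimen 1 both were lost, at 0.75 (limma adjusted p = 0.13) and 0.46 (adjusted p = 0.868), and the second was lost without either CuNZ@Gel specimen, at 0.59 (adjusted p = 0.605) without specimen 1 and 1.02 (adjusted p = 0.0551) without specimen 2. Without Gel specimen 1 the first was at 0.76 (limma adjusted p = 0.0648). Cav1, the caveolin of endothelial and fat cell membranes, rose by 0.77 in Gel (SE 0.18, limma adjusted p = 0.00466), at 114 ± 15.5 in CuNZ@Gel, 171 ± 48.4 in Gel and 95.3 ± 14.6 in Sham (SD, n = 2). That call was kept in 15 of 26 alternatives and lost without Sham specimen 1 (0.64, limma adjusted p = 0.292) or Gel specimen 2 (0.49, adjusted p = 0.165). In CuNZ@Gel against Sham limma called only Apoe of the 19, beside 0.324% of all targets that rose. In that comparison edgeR called only Gpihbp1 and DESeq2 called 0. In CuNZ@Gel against Gel 0 of the 19 were called by limma, edgeR or DESeq2, and 4 passed an unadjusted p under 0.05 in limma. Between the segments 4 of 19 fell, Fabp4, Cd36, Cav1 (-0.75, limma adjusted p = 2.99e-07) and Lrp1, a lipoprotein receptor (-0.41, adjusted p = 0.0194), beside 1.59% of all targets. The Lrp1 call was kept in 13 of 21 alternatives and lost without Sham specimen 2 (-0.37, limma adjusted p = 0.1) or Gel specimen 1 (-0.34, adjusted p = 0.128), while that of Cav1 was kept in 20 of 21.

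Lipid storage genes showed no call. Of 17 lipid droplet genes, 6 were above background and 0 were called by limma in any treatment comparison or between the segments. At an unadjusted p under 0.05 limma gave 2 in Gel against Sham, 2 in CuNZ@Gel against Sham, 1 in CuNZ@Gel against Gel and 3 between the segments, and edgeR and DESeq2 called 0 in each. The shares of all targets at that level were 12.1%, 10.6%, 6.7% and 15.7%. The median log2 change of the 17 was 0.05 in Gel against Sham and -0.02 in CuNZ@Gel against Sham, beside 0.06 and 0.04 for all targets tested. Plin2, the droplet coat protein found in most cell types, stood at 38.9 ± 3.16 in CuNZ@Gel, 40.8 ± 0.438 in Gel and 43.2 ± 7.42 in Sham (SD, n = 2). Of the 18 adipocyte genes limma called 0 between treatments (1, 0 and 2 at an unadjusted p under 0.05 in Gel against Sham, CuNZ@Gel against Sham and CuNZ@Gel against Gel). edgeR called Fabp4 alone, in Gel against Sham, and DESeq2 called 0. The 2 called between the segments were Fabp4 and Cd36.

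Of 16 measured genes of fatty acid synthesis, 6 were above background, and Fads1, a desaturase that makes highly unsaturated fatty acids, fell in both hydrogels. Fads1 was the 1 of the 16 that limma called in each comparison with Sham. Of all targets 1.8% fell in Gel and 0.988% in CuNZ@Gel. Its areas ran from 12.3 to 24.5 in CuNZ@Gel (median 18.6), from 7.19 to 17.8 in Gel (median 12.6) and from 24.5 to 59.9 in Sham (median 38.2). The Gel areas exceeded their background in 3 of 8 cases, the CuNZ@Gel areas in 6 of 8 and the Sham areas in 8 of 8, so the Gel level rests largely on values at background. No Gel area reached a Sham area, a separation whose share among all targets was not computed. The CuNZ@Gel areas met the Sham areas only at 24.5. Gel was at -1.65 relative to Sham (SE 0.22, limma adjusted p = 4.18e-09, kept in 26 of 26 alternatives) and CuNZ@Gel at -1.11 (adjusted p = 0.000611, kept in 21 of 26 and lost without Sham specimen 1, at -0.93 with adjusted p = 0.157). Acly and Acaca, which supply the building blocks of fatty acid synthesis, were at -0.36 and 0.33 in Gel against Sham (limma adjusted p = 0.464 and 0.65).

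Among 20 lipid regulators, 10 were above background, and 1 of 20 fell in each comparison with Sham, beside 1.8% of all targets that fell in Gel and 0.988% in CuNZ@Gel. In Gel against Sham edgeR and DESeq2 called 0 of the 20, and in CuNZ@Gel against Sham edgeR called Klf4 and DESeq2 called 0. Srebf1, a transcription factor of lipid synthesis genes, stood at 33.0 ± 1.70 in CuNZ@Gel, 23.3 ± 0.708 in Gel and 38.4 ± 5.95 in Sham (SD, n = 2). Gel was at -0.74 relative to Sham (SE 0.20, limma adjusted p = 0.0233). That call was kept in 13 of 26 alternatives and lost without Sham specimen 1 (-0.58, limma adjusted p = 0.493), Gel specimen 1 (-0.73, adjusted p = 0.119) or Gel specimen 2 (-0.74, adjusted p = 0.0551). Klf4, a transcription factor of several cell types that acts early in fat cell differentiation, stood at 15.9 ± 4.21 in CuNZ@Gel, 24.7 ± 8.93 in Gel and 36.3 ± 4.84 in Sham. CuNZ@Gel was at -1.13 relative to Sham (SE 0.22, limma adjusted p = 0.000339), a call kept in 19 of 26 alternatives and lost without CuNZ@Gel specimen 2 (-0.87, adjusted p = 0.174). Pparg, the nuclear receptor of the 7, was at background, as given above, and its partners Rxra and Rxrb were at -0.39 and 0.09 in Gel against Sham (limma adjusted p = 0.409 and 0.922).

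The targets whose pattern over the 24 areas was most like Fabp4, by Pearson's r of log2 values among 5553 targets above background, were Timp4 (r = 0.862), Plvap (0.851), Tinagl1 (0.85), Cavin3 (0.83), Gimap6 (0.826) and Hipk1 (0.81). Timp4 is a metalloprotease inhibitor, Plvap a protein of endothelial fenestrae and caveolae, and Cavin3 a caveola coat protein. Cd36 came at rank 12 with r = 0.728, and Cav1 at rank 8 with 0.772. Areas of 1 specimen share a slide tissue and areas of 1 region share a place, so these values describe the 24 areas and carry no test. Fabp4 and Cd36 each had r = 0.145 with the log2 of the area's total counts. With the means of each treatment and segment removed the first 6 were Gstm2 (0.859), Timp4 (0.845), Ebf3 (0.812), Plvap (0.812), Col6a1 (0.805) and Cd36 (0.795). Taken within the 8 areas of a treatment, r with Fabp4 was 0.586 in CuNZ@Gel, 0.952 in Gel and 0.694 in Sham for Timp4. For Plvap it was 0.865, 0.892 and 0.735, and for Cd36 0.905, 0.947 and -0.025. Cd36 therefore followed Fabp4 over the 8 areas of each hydrogel and not over the 8 of Sham. Each of these values pools both specimens of a treatment, and the Sham specimens differed. In Sham specimen 2 both genes were lower in Segment 2 in both regions, and Fabp4 over Cd36 ran from 1.19 to 1.56. In Sham specimen 1 that ratio ran from 0.328 to 1. The low r in Sham thus cannot be assigned to the treatment rather than to a specimen.

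**Figure D5:**
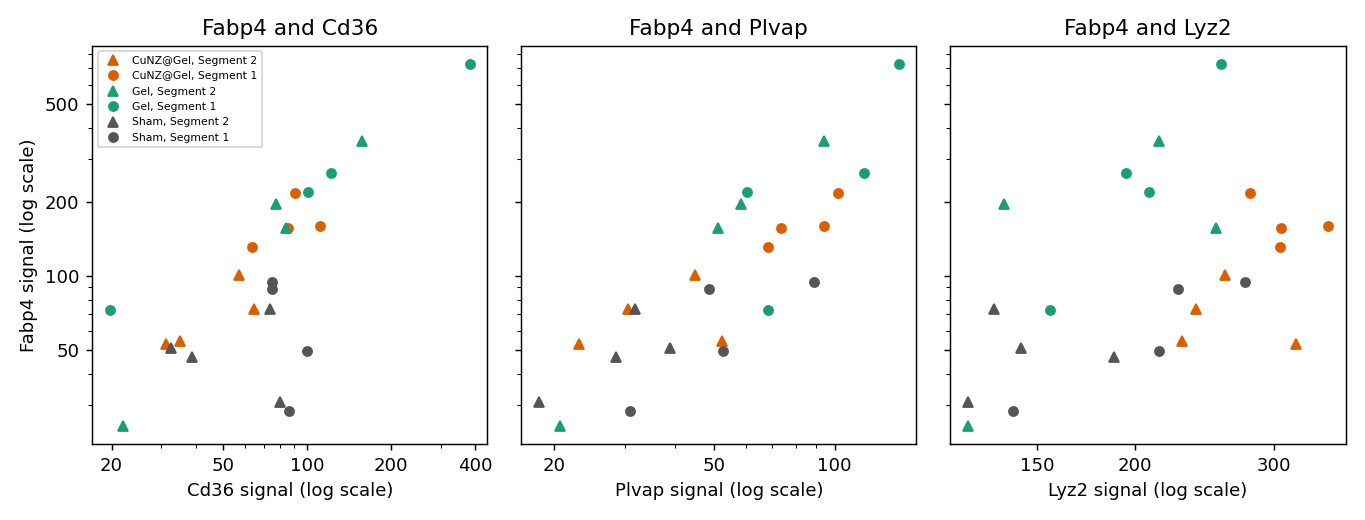
Fabp4 signal against Cd36, Plvap and Lyz2 signal in the 24 areas, with both axes on log scales; colours are treatments and shapes segments. Fabp4 follows Plvap (r = 0.851) and Cd36 (r = 0.728) over the areas, and Lyz2 less closely (r = 0.467).

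Markers of 2 other cell types that carry Fabp4 and Cd36 moved partly with them and partly against them. Of 20 endothelial genes 9 were above background, and over the 24 areas their r with Fabp4 ran from -0.564 for Rgcc to 0.851 for Plvap, with -0.061 for Cldn5, a tight junction protein. Between the segments 3 of the 20 fell, beside 1.59% of all targets. Of targets above background 5.49% were called in either direction. Plvap, with its 8 areas between 23.2 and 102 in CuNZ@Gel, between 20.7 and 144 in Gel and between 18.4 and 88.7 in Sham, fell in Segment 2 by 0.97 on the log2 scale (limma adjusted p = 4.27e-09, kept in 20 of 21 alternatives). The apelin receptor Aplnr was at -1.15 (limma adjusted p = 2.27e-08, kept in 19 of 21). The transcription factor Erg was at -0.62 (limma adjusted p = 0.00464), kept in 14 of 21 and lost without Gel specimen 2 (-0.55, adjusted p = 0.0601). Between treatments Gpihbp1, given above, and Apln, the ligand of Aplnr, were called higher in Gel than in Sham (Apln 0.95, limma adjusted p = 0.0141, kept in 15 of 26), and Rgcc lower (-0.85, adjusted p = 0.0394, kept in 11 of 26). Sox17 was called lower in CuNZ@Gel than in Gel (-0.91, limma adjusted p = 0.0289, kept in 10 of 26). In Gel against Sham limma thus called 2 of the 20 higher and 1 lower, beside 0.618% and 1.8% of all targets. In CuNZ@Gel against Gel it called 1 lower, beside 0.319%, and in CuNZ@Gel against Sham 0, beside 1.31%. Apln was lost without Sham specimen 2 (0.74, limma adjusted p = 0.249) or Gel specimen 1 (0.62, adjusted p = 0.494). Rgcc was lost without any 1 of the Gel or Sham specimens or CuNZ@Gel specimen 2 (-0.89 to -0.80, limma adjusted p = 0.052 to 0.216). Sox17 was lost without either CuNZ@Gel specimen or Gel specimen 2 (-1.09 to -0.56, limma adjusted p = 0.0633 to 0.561). The summed signal of the 20 genes ran from 165 to 494 in CuNZ@Gel (median 385), from 260.1 to 678 in Gel (median 371) and from 208 to 458 in Sham (median 308). Pecam1 and Kdr, which mark endothelium, exceeded background in 0 areas and Cdh5 in 1.

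Of 20 macrophage genes 8 were above background, with Lyz2 and Cd68 so in all 24 areas. Their r with Fabp4 over the 24 areas was 0.472 for C1qc, 0.467 for Lyz2, 0.313 for C1qa and 0.25 for Csf1r. It was 0.17 for C1qb, 0.045 for Mrc1, -0.211 for Cd68 and -0.489 for Spp1. With the means of each treatment and segment removed, r ran from -0.383 for Mrc1 to 0.687 for Csf1r, with 0.627 for Lyz2. For the endothelial genes above background it then ran from -0.404 for Rgcc to 0.812 for Plvap, with 0.279 for Erg. C1qb, a subunit of the complement protein C1q that macrophages make, stood at 5.02 ± 1.46 in CuNZ@Gel, 137 ± 42.2 in Gel and 57.3 ± 27.1 in Sham (SD, n = 2). It exceeded background in 0 of 8 CuNZ@Gel areas and in 8 of 8 areas of Gel and of Sham. The log2 difference was -3.28 for CuNZ@Gel against Sham (limma adjusted p = 4.28e-23) and -4.74 for CuNZ@Gel against Gel (adjusted p = 1.18e-34), both kept in 26 of 26 alternatives, and 1.46 for Gel against Sham (adjusted p = 2.68e-07, kept in 24 of 26). The other C1q subunits did not share these calls. C1qa and C1qc exceeded background in all 24 areas, and limma, edgeR and DESeq2 called neither between treatments. The mannose receptor Mrc1 was lower in CuNZ@Gel than in Gel (-1.14, limma adjusted p = 1.53e-05, kept in 25 of 26) and than in Sham (-0.81, adjusted p = 0.00953, kept in 15 of 26). The call against Sham was lost without any 1 of the 4 specimens compared (-0.92 to -0.71, limma adjusted p = 0.0871 to 0.365). Lyz2 was higher in CuNZ@Gel than in Sham (0.71, limma adjusted p = 0.0211, kept in 13 of 26), a call lost without Sham specimen 1 or either CuNZ@Gel specimen (0.49 to 0.74, adjusted p = 0.339 to 0.811). Of the 20 genes limma called 1 higher in Gel than in Sham, beside 0.618% of all targets. In CuNZ@Gel against Sham it called 1 higher and 2 lower, beside 0.324% and 0.988%. In CuNZ@Gel against Gel it called 2 lower, beside 0.319%. Between the segments 3 of the 20 fell, beside 1.59% of all targets. Csf1r was at -0.49 (limma adjusted p = 0.00069, kept in 18 of 21) and Mrc1 at -0.56 (adjusted p = 0.00385, kept in 15 of 21). The Mrc1 call was lost without Sham specimen 1 (-0.41, limma adjusted p = 0.0688). Lyz2 was at -0.33 (limma adjusted p = 0.0311), a call that neither edgeR nor DESeq2 made and that was kept in 9 of 21 alternatives. It was lost without either Sham specimen, CuNZ@Gel specimen 1 or Gel specimen 1 (-0.31 to -0.27, limma adjusted p = 0.0552 to 0.162). The summed signal of the 20 genes ran from 800.2 to 1157 in CuNZ@Gel (median 927), from 833 to 1372 in Gel (median 981) and from 668 to 1814 in Sham (median 1199). This sum includes Spp1, whose areas ran from 1.36 to 827. Spp1 averaged 379 in Sham specimen 1 and 4.43 in Gel specimen 2. Limma did not call it between treatments, edgeR called it in each treatment comparison and DESeq2 in those that include Gel.

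The sum of the 11 adipocyte genes outside the 7 ran from 75.3 to 110 in CuNZ@Gel (median 92.8), from 68.8 to 110 in Gel (median 93.8) and from 65.4 to 95.05 in Sham (median 88.4), with Cebpa as the 1 gene above background. Of 14 sebocyte genes 4, of 15 keratinocyte genes 0 and of 16 skeletal muscle genes 2 were above background. The part of endothelial or macrophage content in the Fabp4 and Cd36 values was not tested.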

How the data were processed

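RNA probe tags were read in 24 GeoMx areas of fixed rat skin sections, per the labels' protocols. The authors deposited 1 table per area with a signal for 19963 targets, 1 of them a negative probe. Not given in the sources used here were the counting software, the probe filter and the scaling. From the values, the deposited signal has a 75th percentile alike in all areas, and the lowest value was taken as 1 count. Divided by it, 99.98% to 99.995% of values came within 0.01 of a whole number, so whole counts could be recovered.

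The members and lists were chosen with earlier results of these data known. Means of log2(value + 1) over the 4 areas of a specimen entered limma 3.58.1 (R 4.3.3, trend and robust), for the 19728 targets that exceeded the negative probe in 4 areas or more. Segments were fitted on 12 specimen and segment means with specimen as a block, and the treatment by segment terms by an F test. The Benjamini-Hochberg adjustment ran over every target in a fit, and calls were made below 0.05. Fold changes on this scale understate changes of low targets. edgeR 4.0.16 and DESeq2 1.42.0 on recovered counts, other scalings, pseudocounts, filters, thinning, single regions or segments and the omission of each specimen were alternatives. The fits were tested on simulated areas. Named genes were the 7 members, list genes past the threshold with a few of the most abundant others, and the 6 targets most like Fabp4. A further few, such as Pecam1, were named after their values were seen. No sequence is shown and no coordinates are given, since the files name no genome build.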

Additional observations from a re-analysis of the deposited data

How the results depend on the processing

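Counts of called genes among the 7 moved with Fabp4. In Gel against Sham 1 was called after median scaling, without limma's trend and robust steps, on thinned counts, by edgeR, in mac1 alone, in Segment 2 alone, with the replicate block, and without mac2 of either Gel specimen, and 0 to 2 with a specimen left out. Fabp4 was then at 1.54 (adjusted p = 0.000242), 1.69 (0.0217), 1.97 (0.0111), 1.95 (1.48e-06), 2.16 (5.4e-13), 1.40 (2.22e-05), 1.69 (0.022), 1.36 and 2.26, and at 0.81 to 2.57 with a specimen left out. In CuNZ@Gel against Sham 1 was called, Fabp4, in mac1 alone (1.23), in the fit of only these 2 groups (0.97, adjusted p = 5.29e-06) and without mac2 of Gel specimen 2 or 1 (0.97, adjusted p = 0.0313 and 0.00267), and 0 to 1 with a specimen left out (0.65 to 1.30). In CuNZ@Gel against Gel 1 was called without mac2 of Gel specimen 1 (Fabp4 at -1.29), and 0 to 2 with a specimen left out (Fabp4 -1.60 to 0.16). Between the segments Cd36 alone was called in several settings, in which the Fabp4 call was lost. These were quantile normalization (Fabp4 -0.66), log2 of linear means (-0.72), thinned counts (-0.55), mac2 alone (-0.81) and the fit without mac2 of Gel specimen 1 (-0.69). Without trend and robust steps 0 were called (Fabp4 -0.80), and with a specimen left out 1 to 2 were (Fabp4 -1.03 to -0.70). The interaction called 1 on thinned counts (Fabp4, adjusted p = 1.61e-06) and 0 to 1 with a specimen left out (0.0399 to 1). The cause of these changes was not tested. Same-numbered specimens did not deviate together (correlations 0.004, -0.032 and -0.025 over 5554 targets). No shared animal or batch is stated for them, so the replicate block rests on the numbering alone. It moved the calls of all targets from 478 to 500 in Gel against Sham, 259 to 257 in CuNZ@Gel against Sham and 186 to 201 in CuNZ@Gel against Gel.

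Over all targets, Gel against Sham called 478, against 398 after quantile normalization (193 higher and 205 lower, in place of 122 and 356), 176 without trend and robust steps, 201 on thinned counts, 152 by DESeq2, 180 in mac1 alone, 308 in Segment 2 alone and 271 to 752 with a specimen left out. CuNZ@Gel against Sham called 259, against 162 (80 higher and 82 lower, in place of 64 and 195), 44, 58, 59, 97 and 116 in those settings, 146 after median scaling, 461 with only these 2 groups, 460 with 24 areas and 72 to 458 with a specimen left out. CuNZ@Gel against Gel called 186, against 75, 84, 55 and 112 without trend and robust steps, on thinned counts, by DESeq2 and in mac1 alone, and 95 to 293 with a specimen left out. The segments called 381, against 130, 1326, 0, 75 and 142 after quantile normalization, after median scaling, without trend and robust steps, on thinned counts and by DESeq2, and 198 to 404 with a specimen left out. With 2 specimens a treatment, even a log2 change of 1.69 in Fabp4 between Gel and Sham was not called in the main fit. Its 95% interval ran from -0.47 to 3.86, so large changes of Fabp4 could be missed as well as small ones. With Segment 2 areas as shallow as 86385 counts, changes of the 5 genes that stay within background were not detectable.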
